A study of Rattus norvegicus with 11 samples.

Results

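Brain death was compared with ventilation alone in the rat small intestine, over all genes on the array. The 8 brain-dead arrays were 4 from rats with brain death (BD, replicates 1, 3, 4 and 6) and 4 from rats with brain death and vagus nerve stimulation (BD_VNS, replicates 1 to 4). They were set against 3 arrays from rats that were anaesthetised and ventilated but not brain-dead (NBD, replicates 1, 3 and 4), so that all 11 arrays of the series were used. Tissue was taken at 6 hours in every group. The groups were chosen by the sample titles, because the sample source given for NBD refers to brain-dead animals as well. The labels describe the animals as transgenic and name no gene, and they give no strain, age or method of inducing brain death. They do not say that each array is a separate animal, so p-values measure the spread between these samples, which may be technical. The question set by the design was how intestinal gene expression in brain death, with or without stimulation, differed from that under ventilation.

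Brain death can damage the hypothalamus and the control of the pituitary, to a varying degree, so that release of adrenocorticotropic hormone, and with it adrenal glucocorticoid, can fail. It also brings an early surge of catecholamines followed by low vascular tone, and the organs of brain-dead donors carry signs of inflammation. Glucocorticoids act through the receptor Nr3c1, which binds DNA and raises a set of target genes, while the vagus is the main parasympathetic nerve of the gut. The absorptive cells of the small intestine take up sugar, amino acids, nucleosides, fat and iron across their brush border.

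All 6 measured markers of intestinal epithelium (Vil1, Cdx1, Lgals4, Fabp2, Alpi and Cdh17, of 9 chosen) lay above the median probe set on all 11 arrays, at log2 levels from 8.44 to 13.98. Transcripts of the exocrine pancreas set BD 4 and BD 6 apart, with a mean log2 level over 21 measured pancreatic genes of 12.98 and 12.43, against 7.07 to 7.75 in the other arrays. The main counts, and many of the single calls that were lost without those 2 arrays, are given both ways. A sign of RNA quality, the 3'/5' signal ratio (log2) of control probe sets, was 0.765 ± 0.0902 (SD) in the 3 NBD arrays. It was 0.841 ± 0.0534 (SD) in the 4 BD arrays and 0.978 ± 0.155 (SD) in the 4 BD_VNS arrays. Its mean was higher by 0.144 in the brain-dead arrays, with a 2-sided exact permutation p of 0.121, where the smallest p possible is 0.00606. With 3 control arrays, precision is limited throughout. The RNA came from whole tissue, so fewer cells of a type and less RNA per cell cannot be told apart.

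More genes fell than rose in brain death. Of 11427 genes tested with limma, 768 (6.72%) had an adjusted p under 0.05, of which 297 (2.6%) were higher and 471 (4.12%) were lower in the brain-dead arrays. In this contrast the means of BD and BD_VNS had equal weight. Most changes were small: the median absolute log2 change of the 768 genes was 0.30, 642 of them changed by less than 0.5, and 7 rises and 20 falls reached 2-fold. The median change of all genes tested was 0.0033. In 620 of the 768 genes (80.7%) all 8 brain-dead arrays lay on 1 side of all 3 NBD arrays, a separation seen in 917 (8.02%) of all genes tested, 391 upward (3.42%) and 526 downward (4.6%). The 15 largest rises and 15 largest falls described below were chosen with this separation as a condition, so their lack of overlap is not a result. The count was sensitive to the control arrays, at 435 without NBD 1, 400 without NBD 3 and 486 without NBD 4, and it rose to 1197 without BD_VNS 2. Without BD 4 and BD 6, 642 genes passed. With the 3'/5' ratio added to the fit, 504 passed, of which 399 were among the 768. With the brain-dead arrays fitted as 1 group, 545 passed, all of them among the 768.

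The brain-dead groups were also compared with NBD singly, which gave 655 genes (5.73%) in BD, 240 higher (2.1%) and 415 lower (3.63%), and 965 (8.44%) in BD_VNS, 416 higher (3.64%) and 549 lower (4.8%). These comparisons share the NBD arrays, and 370 genes (3.24% of those tested) passed both in the same direction, 115 upward and 255 downward. All 370 were among the 768. Of the rest of the 768, 140 passed in BD, 231 passed in BD_VNS and 27 passed in neither. A gene that passed in 1 of the groups is not by that shown to differ between them. The direct comparison of BD_VNS with BD, which does not use the NBD arrays, was passed by 635 genes (5.56%), 217 higher (1.9%) and 418 lower (3.66%) in BD_VNS, and by 90 (11.7%) of the 768. Col5a2, which encodes a chain of type V collagen, was the 1 gene that passed in opposite directions against NBD, at 0.37 in BD and -0.37 in BD_VNS, and it was named after its values were seen. The 370 became 208 without NBD 1, 210 without NBD 3 and 220 without BD 4 and BD 6.

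**Figure D1:**
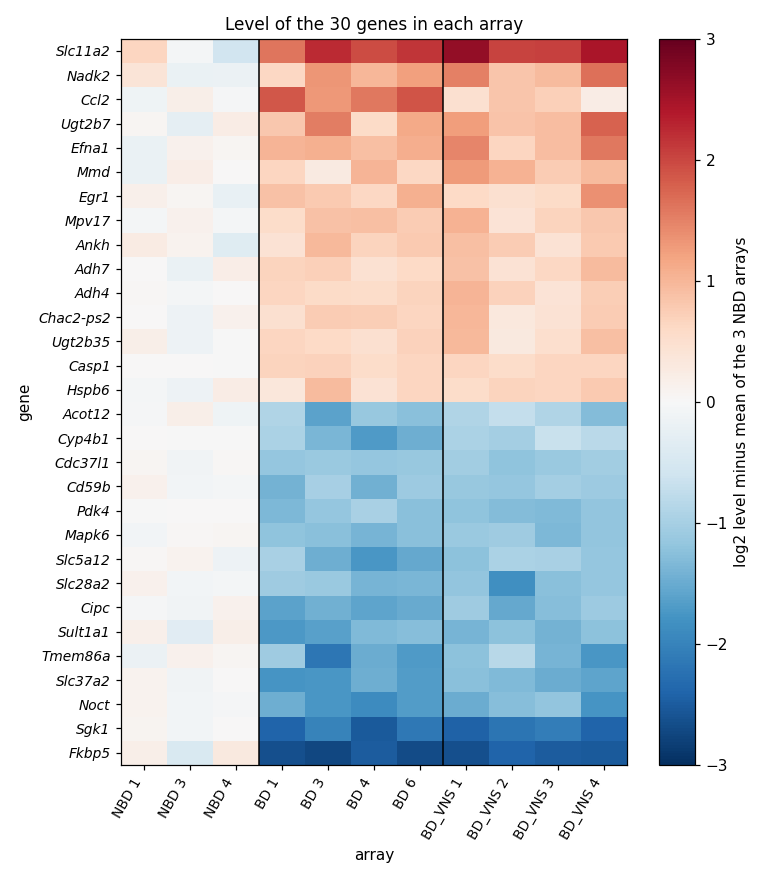
Each cell is the log2 level of a gene on 1 array minus the mean of the 3 NBD arrays, for the 15 largest rises (top) and the 15 largest falls (bottom) whose arrays did not overlap between NBD and the brain-dead groups. Vertical lines part NBD, BD and BD_VNS; the colour keeps its direction across all 8 brain-dead arrays because genes with overlap were not eligible, and Ccl2 is the riser with the widest gap between BD and BD_VNS.

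The 2 largest falls were in genes that glucocorticoids induce. Of 31 measured members of the glucocorticoid list, 13 fell and 3 rose, against 4.12% and 2.6% of all genes, and the list had a median log2 change of -0.16. Fkbp5 and Sgk1 fell by 5.96-fold and 4.83-fold, and Pdk4, Tsc22d3 and Klf9 fell with them in both brain-dead groups. The 250 bases before the annotated start of the members of this list and of the clock list that were among the largest falls, leaving out Cipc, are shown here, as the upstream sequences of genes that fell together. They are RefSeq's, in build GRCr8, 5′ to 3′ on the gene's strand.

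Fkbp5 (chr20:6543556-6543805, minus strand): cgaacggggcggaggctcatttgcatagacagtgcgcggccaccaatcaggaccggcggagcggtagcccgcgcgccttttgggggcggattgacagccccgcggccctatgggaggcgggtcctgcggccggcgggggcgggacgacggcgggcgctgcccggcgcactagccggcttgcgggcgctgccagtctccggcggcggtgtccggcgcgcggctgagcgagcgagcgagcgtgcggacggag
Sgk1 (chr1:24807232-24807481, minus strand, the first of 3 annotated starts): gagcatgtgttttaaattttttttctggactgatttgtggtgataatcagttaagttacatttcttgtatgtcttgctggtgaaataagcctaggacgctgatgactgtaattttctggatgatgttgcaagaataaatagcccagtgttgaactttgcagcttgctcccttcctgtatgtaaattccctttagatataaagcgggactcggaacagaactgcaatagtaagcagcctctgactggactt
Sult1a1 (chr1:190706113-190706362, minus strand): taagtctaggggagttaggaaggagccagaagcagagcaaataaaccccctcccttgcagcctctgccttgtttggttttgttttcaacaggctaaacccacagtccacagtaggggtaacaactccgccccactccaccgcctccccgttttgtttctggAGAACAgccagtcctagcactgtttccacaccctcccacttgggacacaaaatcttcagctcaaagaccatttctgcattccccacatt
Pdk4 (chr4:34568330-34568579, minus strand): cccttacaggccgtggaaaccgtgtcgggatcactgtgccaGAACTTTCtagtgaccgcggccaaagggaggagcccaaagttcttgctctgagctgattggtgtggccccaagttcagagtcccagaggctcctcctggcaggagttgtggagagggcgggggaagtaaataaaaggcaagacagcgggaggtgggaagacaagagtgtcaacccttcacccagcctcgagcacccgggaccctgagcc
Noct (chr2:137421824-137422073, plus strand): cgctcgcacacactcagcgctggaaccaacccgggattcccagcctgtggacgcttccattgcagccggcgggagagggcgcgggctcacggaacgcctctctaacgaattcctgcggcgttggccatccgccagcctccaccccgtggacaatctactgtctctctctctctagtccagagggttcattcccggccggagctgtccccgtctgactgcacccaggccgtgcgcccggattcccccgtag

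Capitals mark a glucocorticoid receptor site of 6 letters (AGAACA) at position -89 of Sult1a1 and a heat shock element (GAANNTTC) at -209 of Pdk4, counted back from the start. The 6-letter site, searched like all others on both strands, was in 17.5% of all 33469 windows of this length, in 12.3% of those of the 9113 measured genes that have one, in 14.2% of the 366 among them that fell and in 9.54% of the 241 that rose. The full palindromic glucocorticoid response element was in 4 windows of the table and in 0 of the measured genes. The heat shock element was in 7.23% of all windows, 5.2% of those of measured genes, 6.28% of those that fell and 5.39% of those that rose. Of the clock motifs, the E-box (CACGTG) was in 5.59% of all windows, 7.92% of those of measured genes, 6.83% of those that fell and 6.64% of those that rose. The D-box (TTATGTAA) was in 0.828%, 0.505%, 1.09% and 0.0% in the same order. The 5 windows shown held no E-box, D-box, cyclic AMP response element (TGACGTCA), AP-1 site (TGANTCA) or amino acid response element (TGATGCAAT). The loose NF-kB pattern (GGG, any 5 bases, CC), found in 42.3% of all windows, 60.1% of those of measured genes, 66.9% of those that fell and 66.4% of those that rose, matched in Fkbp5, Noct, Sult1a1 and Pdk4 and is not capitalised. These are matches of letters in a window, some of which overlap on the opposite strand.

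Fkbp5, which encodes a co-chaperone that holds back the glucocorticoid receptor, had log2 levels of 9.96, 9.33 and 10.09 in NBD, 7.15, 7.07, 7.30 and 7.12 in BD, and 7.14, 7.39, 7.29 and 7.26 in BD_VNS. Every brain-dead array was clearly below every NBD array. Its level fell by 2.58 ± 0.13 (adjusted p = 4.56e-07) on the log2 scale, with changes of -2.63 in BD and -2.52 in BD_VNS. Sgk1, a kinase that acts on sodium transport, was at 12.57, 12.40 and 12.48 in NBD, 10.08, 10.49, 9.96 and 10.33 in BD, and 10.06, 10.28, 10.40 and 10.08 in BD_VNS, again with no overlap. It fell by 2.27 ± 0.11 (adjusted p = 4.56e-07), and its difference between BD_VNS and BD was -0.01 ± 0.11 (adjusted p = 0.976). Pdk4, the kinase that shuts pyruvate dehydrogenase, was at 8.92, 8.96 and 8.94 in NBD, 7.60, 7.78, 7.97 and 7.68 in BD, and 7.74, 7.65, 7.62 and 7.76 in BD_VNS. All 8 brain-dead arrays lay below the controls, and Pdk4 fell by 1.22 ± 0.07 (adjusted p = 1.07e-06). Tsc22d3, the anti-inflammatory protein known as GILZ, was at 10.26, 9.89 and 10.27 in NBD, 8.97, 9.19, 8.97 and 8.90 in BD, and 9.19, 9.12, 9.14 and 9.26 in BD_VNS and fell by 1.05 ± 0.08 (adjusted p = 2.28e-05). Klf9, a transcription factor of the Krüppel family, was at 9.04, 9.09 and 9.19 in the NBD arrays and ran from 8.36 through a median of 8.42 to 8.50 in the brain-dead arrays. The groups did not overlap for either gene, and Klf9 fell by 0.68 ± 0.04 (adjusted p = 5.84e-06).

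Sult1a1, a sulfotransferase for phenols and drugs, was at 8.83, 8.35 and 8.86 in NBD, 6.96, 7.06, 7.35 and 7.41 in BD, and 7.28, 7.45, 7.25 and 7.45 in BD_VNS and fell by 1.40 ± 0.12 (adjusted p = 3.96e-05), with no overlap. Cdkn1a, the cell cycle inhibitor p21, was at 9.24, 9.23 and 9.23 in the NBD arrays and ran from 8.14 through a median of 8.36 to 8.55 in the brain-dead arrays, all below the controls, and fell by 0.85 ± 0.07 (adjusted p = 2.27e-05). Ddit4, Ampd3, Gadd45a, Lcn2, Hsd11b2 and Nfkbia made up the rest of the falls of this list. The 3 rises were Nr3c1, the glucocorticoid receptor itself, Glul, the glutamine synthetase, and Nr1d1, a clock repressor. Tsc22d3 and the members listed without values, here and in the lists that follow, were picked out after their values were seen. In that list 1 rose and 10 fell without NBD 3 and 1 rose and 12 fell without NBD 4, and 1 rose and 10 fell with the 3'/5' ratio in the fit. Nfkbia passed in BD_VNS and not in BD (adjusted p = 0.105 there). Nfkbia did not pass with the 3'/5' ratio in the fit (adjusted p = 0.0617).

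**Figure D2:**
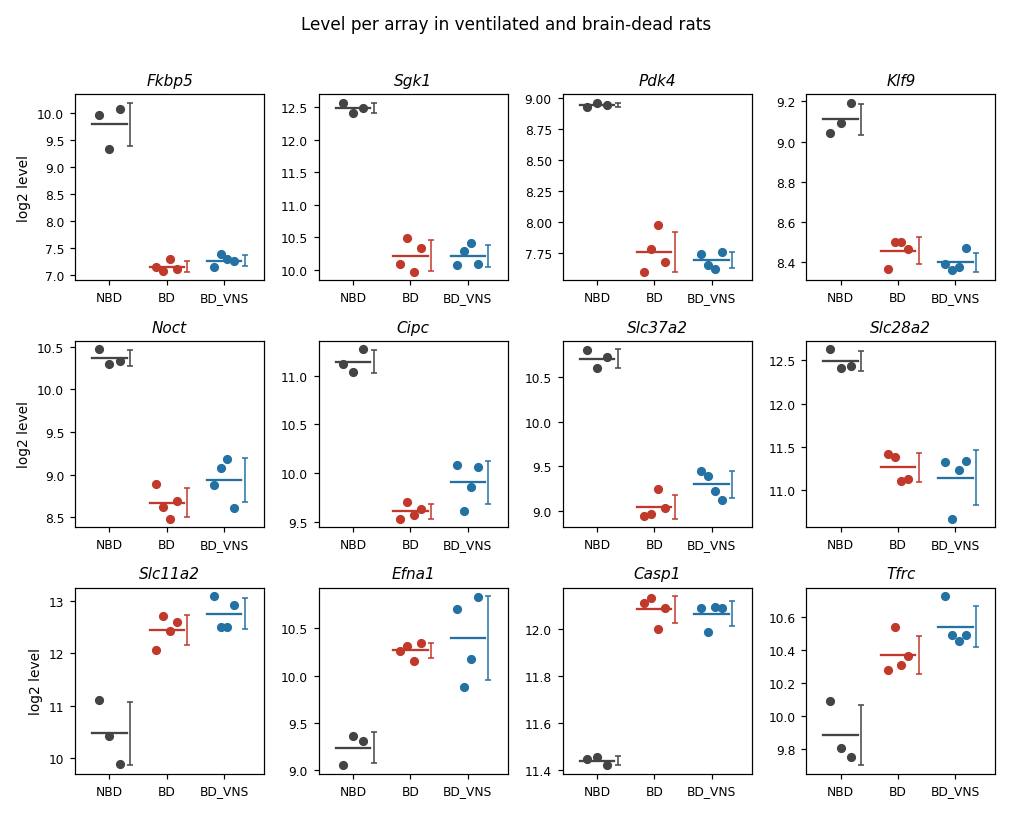
Each point is the log2 level on 1 array, by group; the horizontal line is the group mean and the bar beside it 1 SD (NBD n = 3, BD n = 4, BD_VNS n = 4). Each panel has its own axis, which does not start at 0. In all 12 genes every brain-dead array lies on 1 side of every NBD array, as in 8.02% of all genes tested. For all but Klf9 and Tfrc this separation was a condition of being chosen.

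Clock genes moved in both directions. Of the circadian list, 3 rose and 5 fell of 20 measured (15% and 25%), with a median log2 change of -0.10. Noct, a circadian phosphatase of nicotinamide dinucleotides, was at 10.47, 10.29 and 10.34 in NBD, 8.89, 8.63, 8.48 and 8.69 in BD, and 8.88, 9.08, 9.19 and 8.61 in BD_VNS, and every brain-dead array was below every control. It fell by 1.56 ± 0.11 (adjusted p = 1.36e-05). Cipc, a repressor of the Clock protein, was at 11.12, 11.04 and 11.27 in NBD, 9.53, 9.70, 9.57 and 9.63 in BD, and 10.08, 9.61, 9.86 and 10.06 in BD_VNS and fell by 1.39 ± 0.09 (adjusted p = 5.82e-06). Neither gene had overlapping groups. Per2, a core clock repressor, was picked after its values were seen. Its levels were 10.03, 9.66 and 9.75 in NBD, 8.89, 8.73, 8.79 and 8.72 in BD, and 9.34, 8.76, 9.40 and 9.23 in BD_VNS. Per2 fell by 0.83 ± 0.12 (adjusted p = 0.0015), a change seen at -1.03 in BD and -0.63 in BD_VNS. Usp2, a deubiquitinase, fell by 0.60 ± 0.06 (adjusted p = 9.74e-05), and Cry1, another core repressor, completed the falls. Nr1d1 was at 8.82, 8.94 and 8.79 in the NBD arrays and ran from 9.15 through a median of 9.27 to 9.37 in the brain-dead arrays, and rose by 0.42 ± 0.05 (adjusted p = 8.25e-04) without overlap. Dbp and Nfil3, which activate and repress through the D-box, were the other rises. Tissue was taken at 6 hours in each group, and the labels used here give no time of day.

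Several transporters of amino acids and nucleosides were lower in brain death. Of the amino acid and nucleoside transport list, 3 rose and 9 fell of 27 measured (11.1% and 33.3%), with a median log2 change of -0.09. Of all genes tested, 2.6% rose and 4.12% fell. For the amino acid list, 2 rose and 8 fell in BD taken singly, and 3 rose and 7 fell in BD_VNS. Slc28a2, a sodium-coupled nucleoside transporter of the brush border, was at 12.63, 12.41 and 12.44 in NBD, 11.42, 11.38, 11.10 and 11.13 in BD, and 11.32, 10.66, 11.23 and 11.33 in BD_VNS. All brain-dead arrays were below the controls, with BD_VNS 2 the lowest, and it fell by 1.29 ± 0.13 (adjusted p = 1.43e-04). Slc5a12, a monocarboxylate transporter, was at 8.73, 8.81 and 8.55 in NBD, 7.72, 7.23, 6.95 and 7.16 in BD, and 7.47, 7.75, 7.72 and 7.54 in BD_VNS and fell by 1.25 ± 0.13 (adjusted p = 1.62e-04). Its groups did not overlap. Ada, adenosine deaminase, fell by 0.69 ± 0.07 (adjusted p = 1.10e-04), and Slc3a2, the heavy chain shared by several amino acid exchangers, by 0.65 ± 0.08 (adjusted p = 5.67e-04). The list's rises were Slc7a1, a cationic amino acid transporter, and the purine enzymes Pnp and Xdh. In that list 3 rose and 5 fell without NBD 1 or NBD 3. Slc7a1 passed in BD_VNS and not in BD (adjusted p = 0.106 there).

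In the sugar list, 2 rose and 4 fell of 23 measured (8.7% and 17.4%), with a median log2 change of 0.05. For the sugar list, 1 rose and 4 fell in BD taken singly, and 2 rose and 2 fell in BD_VNS. Slc37a2, a sugar phosphate exchanger, was at 10.80, 10.59 and 10.72 in NBD, 8.95, 8.96, 9.24 and 9.04 in BD, and 9.45, 9.39, 9.22 and 9.13 in BD_VNS, far below the controls in every brain-dead array, and fell by 1.53 ± 0.08 (adjusted p = 7.74e-07). Slc37a4, the glucose 6-phosphate transporter, fell by 0.30 ± 0.06 (adjusted p = 0.00946), Slc2a2, the basolateral glucose transporter, by 0.16 ± 0.04 (adjusted p = 0.0216), and Txnip completed the falls. For Slc2a2 the change was -0.27 in BD and -0.06 in BD_VNS, and the difference between the groups was 0.21 ± 0.04 (adjusted p = 0.014). The rises were Gbe1, the glycogen branching enzyme, by 0.20 ± 0.05 (adjusted p = 0.0217), and Fbp2. Of the inorganic ion list, 1 rose and 6 fell of 37 measured (2.7% and 16.2%), with a median log2 change of -0.03. The share of rises was close to the 2.6% of all genes tested. For the inorganic ion list, 0 rose and 8 fell in BD taken singly, and 2 rose and 2 fell in BD_VNS. Slc9a3, the sodium and proton exchanger of the brush border, was at 10.83, 11.23 and 11.13 in the NBD arrays and ran from 9.97 through a median of 10.17 to 10.48 in the brain-dead arrays, with no overlap, and fell by 0.88 ± 0.12 (adjusted p = 0.00116). Aqp7, a glycerol and water channel, was at 10.08, 10.17 and 9.85 in the NBD arrays and ran from 8.96 through a median of 9.23 to 9.55 in the brain-dead arrays and fell by 0.77 ± 0.12 (adjusted p = 0.00239). Car4, a membrane carbonic anhydrase named after its values were seen, changed by -1.26, and its arrays overlapped. Kcne3 and Atp1b1 were among the other falls, and Atp2b1, a calcium pump, the 1 rise. Slc37a4, Slc2a2, Car4 and Kcne3 passed in BD and not in BD_VNS (adjusted p from 0.0741 to 0.449 there). Slc2a2, Gbe1, Car4 and Kcne3 did not pass with the 3'/5' ratio in the fit (adjusted p from 0.0528 to 0.188), nor did Slc2a2 or Car4 with the pancreas list mean in it (adjusted p from 0.0519 to 0.053).

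Slc37a4 no longer passed without NBD 3 (adjusted p = 0.0696), Slc2a2 without NBD 3 (adjusted p = 0.146), NBD 4 (adjusted p = 0.0673) or both BD 4 and BD 6 (adjusted p = 0.066), Gbe1 without NBD 1 (adjusted p = 0.136), NBD 3 (adjusted p = 0.114) or both BD 4 and BD 6 (adjusted p = 0.0584) and Kcne3 without NBD 1 (adjusted p = 0.0904), NBD 4 (adjusted p = 0.0946) or both BD 4 and BD 6 (adjusted p = 0.0549). The call for Car4 was lost without NBD 3, NBD 4, BD 3, BD 6, BD_VNS 1, BD_VNS 4 or both BD 4 and BD 6, with adjusted p from 0.052 to 0.202. In the sugar list 1 rose and 4 fell without BD 4 and BD 6, and with single arrays left out 0 to 3 rose, fewest without NBD 1 or NBD 3, and 1 to 5 fell, fewest without NBD 3, and 0 rose and 2 fell with the 3'/5' ratio in the fit. In the inorganic ion list 1 rose and 3 fell without BD 4 and BD 6, and with single arrays left out 0 to 2 rose, fewest without NBD 3, NBD 4, BD 6, BD_VNS 1, BD_VNS 3 or BD_VNS 4, and 3 to 9 fell, fewest without NBD 3 or NBD 4, and 0 rose and 2 fell with the 3'/5' ratio in the fit.

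Genes of the 3 lipid lists that passed all fell. Of the fat absorption list 0 rose and 4 fell of 23 measured (0% and 17.4%), with a median log2 change of -0.13. In BD alone 7 members fell, and in BD_VNS no member passed in limma, with a median of -0.07. Of the fatty acid oxidation list 0 rose and 5 fell of 32 measured (0% and 15.6%), with a median log2 change of -0.02. For the fatty acid oxidation list, 0 rose and 5 fell in BD taken singly, and 0 rose and 3 fell in BD_VNS. Of the cholesterol list 0 rose and 5 fell of 26 measured (0% and 19.2%), with a median log2 change of -0.16. For the cholesterol list, 0 rose and 3 fell in BD taken singly, and 0 rose and 4 fell in BD_VNS. Acot12, a cytosolic acetyl-CoA hydrolase, was at 9.36, 9.58 and 9.28 in NBD, 8.51, 7.79, 8.27 and 8.16 in BD, and 8.50, 8.69, 8.51 and 8.10 in BD_VNS, with no overlap, and fell by 1.09 ± 0.14 (adjusted p = 9.49e-04). Apob, the protein of chylomicrons, was at 10.47, 10.51 and 10.42 in the NBD arrays and ran from 9.83 through a median of 10.03 to 10.40 in the brain-dead arrays and fell by 0.41 ± 0.07 (adjusted p = 0.00522). Its groups did not overlap. Insig2, which retains sterol sensors in the endoplasmic reticulum, fell by 0.29 ± 0.04 (adjusted p = 5.25e-04), and Lss, lanosterol synthase, by 0.28 ± 0.05 (adjusted p = 0.00609). Other falls included Dgat1, Dgat2 and Apoc2 in the first list, Pdk4, Acadm and Ucp2 in the second, and Stard4 and Hsd17b7 in the third. Apob, Dgat1, Dgat2, Apoc2 and Acadm passed in BD and not in BD_VNS (adjusted p from 0.0561 to 0.156 there). Stard4 passed in BD_VNS and not in BD (adjusted p = 0.0735 there). Dgat1, Dgat2, Apoc2, Acadm and Stard4 did not pass with the 3'/5' ratio in the fit (adjusted p from 0.0621 to 0.166), nor did Dgat1, Dgat2, Apoc2 or Stard4 with the pancreas list mean in it (adjusted p from 0.0581 to 0.0664). Without both BD 4 and BD 6, Dgat1, Dgat2, Apoc2 and Stard4 also did not pass (adjusted p from 0.052 to 0.0769). Acadm no longer passed without NBD 3 (adjusted p = 0.0671), and Dgat1 without NBD 3 (0.154) or NBD 4 (0.0676). The call for Dgat2 was lost without NBD 1, NBD 3, NBD 4, BD 3, BD 6 or BD_VNS 3 (0.0524 to 0.138). That for Apoc2 was lost without NBD 3, NBD 4, BD 6, BD_VNS 1 or BD_VNS 3 (0.054 to 0.158), and that for Stard4 without NBD 3, NBD 4, BD 6, BD_VNS 3 or BD_VNS 4 (0.052 to 0.156).

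In the fat absorption list 0 rose and 1 fell without both BD 4 and BD 6, NBD 3 or NBD 4, 0 rose and 8 fell without BD 1 and 0 rose and 2 fell without BD 6 or BD_VNS 3, and 0 rose and 1 fell with the 3'/5' ratio in the fit. In the fatty acid oxidation list 0 rose and 3 fell without NBD 3, and 0 rose and 3 fell with the 3'/5' ratio in the fit. In the cholesterol list 0 rose and 3 fell without both BD 4 and BD 6, NBD 1, NBD 4, BD_VNS 1 or BD_VNS 3 and 0 rose and 2 fell without NBD 3 or BD 6.

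Tmem86a, a hydrolase of lysoplasmalogens, was among the largest falls outside these lists. Its levels were 11.12, 11.44 and 11.36 in NBD, 10.24, 9.15, 9.82 and 9.61 in BD, and 10.09, 10.47, 9.91 and 9.56 in BD_VNS, spread widely in the brain-dead groups but always below the controls, and it fell by 1.45 ± 0.21 (adjusted p = 0.0015). Mapk6, the atypical kinase ERK3, was at 11.12, 11.23 and 11.25 in NBD, 9.99, 9.95, 9.82 and 9.94 in BD, and 10.10, 10.13, 9.86 and 10.02 in BD_VNS, in a narrow band within each group. It fell by 1.23 ± 0.06 (adjusted p = 4.56e-07). Cdc37l1, a partner of the chaperone Hsp90, was at 8.71, 8.55 and 8.69 in NBD, 7.50, 7.54, 7.50 and 7.50 in BD, and 7.60, 7.45, 7.54 and 7.61 in BD_VNS. It fell by 1.12 ± 0.05 (adjusted p = 2.21e-07), with -1.14 in BD and -1.10 in BD_VNS and no overlap. Cd59b, read on a probe set that may measure more than 1 copy of this complement inhibitor, was at 11.19, 10.98 and 10.99 in the NBD arrays and ran from 9.62 through a median of 9.94 to 10.06 in the brain-dead arrays, below the controls throughout, and fell by 1.17 ± 0.09 (adjusted p = 2.28e-05).

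**Figure D3:**
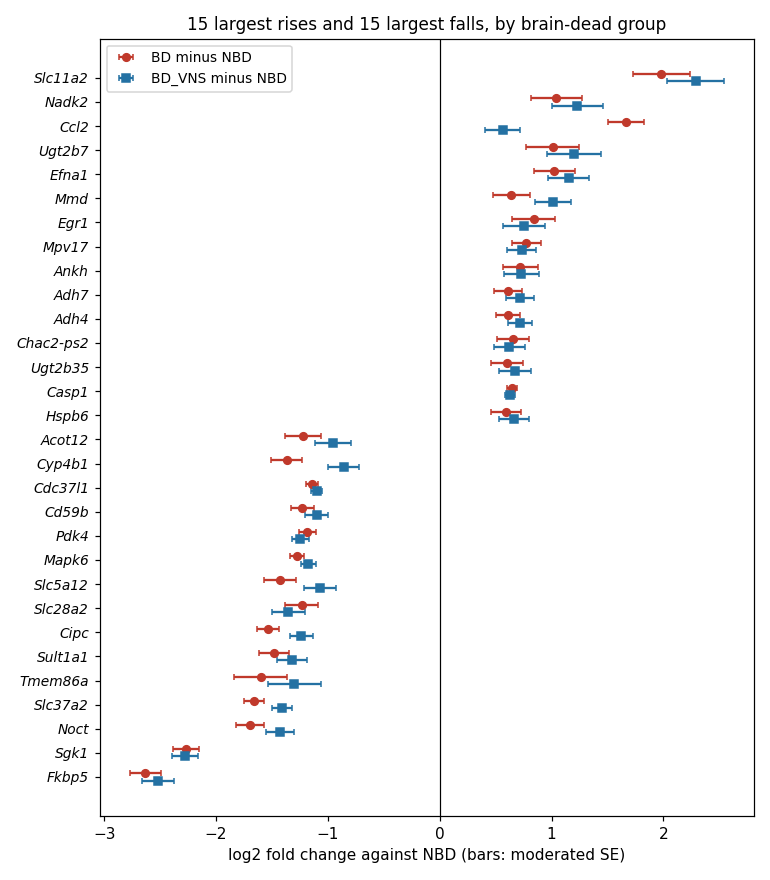
Points give the log2 change against NBD in BD (circles) and BD_VNS (squares) for the 15 largest rises and 15 largest falls; bars are the moderated SE and both comparisons share the 3 NBD arrays. All 30 genes passed in both groups, against 3.24% of all genes tested, and they had been chosen for large changes without overlap. Ccl2 passed in BD_VNS at an adjusted p of 0.0499. The change differed between BD and BD_VNS in 2 of the 30, Ccl2 and Cyp4b1, a share close to the 5.56% of all genes tested.

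Several drug-metabolising genes fell. Of the xenobiotic list, 2 rose and 8 fell of 31 measured (6.45% and 25.8%), with a median log2 change of -0.17. Cyp4b1, a cytochrome P450, was at 10.30, 10.29 and 10.29 in NBD, 9.34, 8.93, 8.59 and 8.83 in BD, and 9.34, 9.28, 9.62 and 9.49 in BD_VNS. All brain-dead arrays were below the controls, and it fell by 1.11 ± 0.12 (adjusted p = 2.67e-04). The fall was farther from NBD in BD, with a BD_VNS minus BD difference of 0.51 ± 0.13 (adjusted p = 0.0395). That difference passed in 2 of the 11 fits that left out 1 array, without BD 1 or BD_VNS 2, with adjusted p up to 0.105 in the rest and 0.218 without BD 4 and BD 6. Cyp3a9, another P450, fell by 0.54 ± 0.05 (adjusted p = 6.75e-05), and Nat2, an arylamine acetyltransferase, by 0.59 ± 0.10 (adjusted p = 0.00476). The 2 rises were glucuronosyltransferases, which may share probes with near-identical copies. Ugt2b7 was at 8.27, 7.95 and 8.43 in NBD, 9.03, 9.74, 8.79 and 9.34 in BD, and 9.47, 9.07, 9.15 and 9.98 in BD_VNS, without overlap, and rose by 1.10 ± 0.21 (adjusted p = 0.0083), and Ugt2b35 rose by 0.64 ± 0.13 (adjusted p = 0.0103). Ugt2b7 no longer passed without NBD 3 (adjusted p = 0.0623) and Ugt2b35 without NBD 3 (adjusted p = 0.0762) or NBD 4 (adjusted p = 0.0509). In that list 0 rose and 6 fell without NBD 3, 3 rose and 5 fell without NBD 4 and 4 rose and 7 fell without BD 4, and 0 rose and 7 fell with the 3'/5' ratio in the fit. Ugt2b7 and Ugt2b35 did not pass with the 3'/5' ratio in the fit (adjusted p from 0.0601 to 0.068).

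Slc11a2 (DMT1), the transporter that carries ferrous iron into the enterocyte, was the largest rise. Its levels were 11.10, 10.42 and 9.89 in NBD, 12.06, 12.72, 12.42 and 12.60 in BD, and 13.10, 12.50, 12.51 and 12.92 in BD_VNS. The NBD arrays spread widely, and all 8 brain-dead arrays were above them. Slc11a2 rose by 2.14 ± 0.22 (adjusted p = 1.80e-04), which is 4.39-fold, with changes of 1.98 in BD and 2.29 in BD_VNS. Cybrd1, the brush border ferric reductase that works beside it, was at 11.42, 9.32 and 9.29 in NBD, 11.21, 12.51, 11.62 and 12.16 in BD, and 12.11, 11.36, 11.48 and 12.25 in BD_VNS. It was picked after its values were seen, and NBD 1 lay among the brain-dead arrays. Its change was 1.83 ± 0.42 (adjusted p = 0.0237). Cybrd1 no longer passed without NBD 3 (adjusted p = 0.148), NBD 4 (adjusted p = 0.127) or both BD 4 and BD 6 (adjusted p = 0.055). Cybrd1 did not pass with the 3'/5' ratio in the fit (adjusted p = 0.123).

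Of the iron and heme list, 4 rose and 1 fell of 22 measured (18.2% and 4.55%), with a median log2 change of 0.05. The share of falls was close to the 4.12% of all genes tested. Tfrc, the transferrin receptor, was at 10.09, 9.81 and 9.75 in NBD, 10.28, 10.54, 10.31 and 10.37 in BD, and 10.73, 10.49, 10.45 and 10.49 in BD_VNS, with no overlap, and rose by 0.57 ± 0.08 (adjusted p = 0.00153). Hmox1, heme oxygenase, was at 8.64, 9.06 and 9.02 in the NBD arrays and ran from 9.21 through a median of 9.55 to 9.71 in the brain-dead arrays, higher in every brain-dead array, and rose by 0.61 ± 0.10 (adjusted p = 0.00305). The fall was in Slc46a1, a folate and heme carrier, which was at 10.30, 10.34 and 10.13 in the NBD arrays and ran from 9.59 through a median of 9.83 to 10.02 in the brain-dead arrays and fell by 0.46 ± 0.07 (adjusted p = 0.00193) with no overlap.

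Other large rises were in genes outside the lists. Nadk2, the mitochondrial NAD kinase, was at 8.82, 8.23 and 8.27 in NBD, 9.06, 9.77, 9.43 and 9.67 in BD, and 9.95, 9.28, 9.38 and 10.09 in BD_VNS, and rose by 1.14 ± 0.20 (adjusted p = 0.00498) with no overlap. Efna1, a membrane ligand of Eph receptors, was at 9.05, 9.36 and 9.31 in NBD, 10.26, 10.31, 10.15 and 10.34 in BD, and 10.70, 9.88, 10.17 and 10.83 in BD_VNS, tight in BD and spread in BD_VNS but above the controls throughout. It rose by 1.09 ± 0.16 (adjusted p = 0.00206). The alcohol dehydrogenases Adh7 and Adh4, which may cross-react, rose by 0.66 ± 0.11 (adjusted p = 0.00362) and 0.66 ± 0.09 (adjusted p = 0.00135). Mmd rose by 0.83 ± 0.14 (adjusted p = 0.00466), Mpv17, an inner mitochondrial membrane protein, by 0.75 ± 0.12 (adjusted p = 0.00218), and Ankh, which exports pyrophosphate, by 0.72 ± 0.14 (adjusted p = 0.00799). Chac2-ps2, which RefSeq names as a pseudogene, rose by 0.64 ± 0.12 (adjusted p = 0.00879). Chac2-ps2 no longer passed without NBD 3 (adjusted p = 0.0656). Chac2-ps2 did not pass with the 3'/5' ratio in the fit (adjusted p = 0.0508).

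Of the apoptosis list, 5 rose and 5 fell of 28 measured (17.9% and 17.9%), with a median log2 change of -0.06. For the apoptosis list, 5 rose and 1 fell in BD taken singly, and 5 rose and 5 fell in BD_VNS. Casp1, the caspase that matures interleukin 1 beta, was at 11.45, 11.46 and 11.42 in NBD, 12.11, 12.13, 12.0 and 12.09 in BD, and 12.09, 11.99, 12.10 and 12.09 in BD_VNS. The arrays within each group lay close together and no group overlapped NBD. It rose by 0.63 ± 0.04 (adjusted p = 3.72e-06), at 0.64 in BD and 0.62 in BD_VNS. Apaf1, which forms the apoptosome, rose by 0.36 ± 0.05 (adjusted p = 0.00144), and Casp6 and Fas were among the other rises. The falls were Cdkn1a, Ccng1, Gadd45a, Gadd45b and Gadd45g, which are targets of p53 or stress and act on the cell cycle. In that list 4 rose and 1 fell without NBD 1, 5 rose and 3 fell without NBD 3 and 4 rose and 2 fell without NBD 4, and 5 rose and 3 fell with the 3'/5' ratio in the fit.

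Stress regulators were mixed. Of the Nrf2 list 3 rose and 2 fell of 25 measured (12% and 8%), with a median log2 change of 0.03, and of the ER stress and amino acid list 2 rose and 4 fell of 32 measured (6.25% and 12.5%), with a median log2 change of 0.06. For the Nrf2 list, 3 rose and 0 fell in BD taken singly, and 4 rose and 3 fell in BD_VNS. Nfe2l2, which encodes Nrf2, was at 11.10, 10.87 and 10.88 in the NBD arrays and ran from 11.18 through a median of 11.59 to 11.88 in the brain-dead arrays, above the controls throughout, and rose by 0.62 ± 0.09 (adjusted p = 0.00206). Hmox1 and Gclc, an enzyme of glutathione synthesis, were the other rises, and Gpx3 and Gsta1 the falls. Edem1, which sends misfolded glycoproteins to degradation, fell by 0.46 ± 0.06 (adjusted p = 4.76e-04), and Herpud1, of the same pathway, by 0.43 ± 0.07 (adjusted p = 0.00371). Slc3a2 and Ddit4 were the other falls of that list, and Slc7a1 and Cth its rises. Gclc no longer passed without NBD 1 (adjusted p = 0.0519). In the Nrf2 list 2 rose and 1 fell without NBD 1, 3 rose and 1 fell without NBD 3 and 5 rose and 1 fell without NBD 4, and 3 rose and 1 fell with the 3'/5' ratio in the fit. In the ER stress list 1 rose and 4 fell without NBD 3 or NBD 4, and 1 rose and 4 fell with the 3'/5' ratio in the fit. Gsta1 passed in BD_VNS and not in BD (adjusted p = 0.163 there). It passed the pooled contrast in 20 of 21 alternative fits. The other, with an adjusted p of 0.107, took the brain-dead arrays as 1 group, so that the gap between BD and BD_VNS counted as spread.

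Of the immediate early genes, 4 rose and 2 fell of 30 measured (13.3% and 6.67%), with a median log2 change of 0.08. Egr1, a zinc finger factor of growth and stress signals, was at 8.89, 8.80 and 8.50 in NBD, 9.61, 9.52, 9.35 and 9.80 in BD, and 9.32, 9.21, 9.30 and 10.10 in BD_VNS, with no overlap, and rose by 0.80 ± 0.17 (adjusted p = 0.0146). Ier5 rose by 0.34 ± 0.05 (adjusted p = 0.00206), and Junb and Ier2 were the other rises. Jun, a part of AP-1, was at 9.55, 9.41 and 9.49 in the NBD arrays and ran from 8.62 through a median of 8.92 to 9.08 in the brain-dead arrays, lower in every brain-dead array, and fell by 0.62 ± 0.07 (adjusted p = 4.37e-04). Dusp6, the phosphatase of ERK kinases, was at 10.37, 10.25 and 10.37 in the NBD arrays and ran from 9.05 through a median of 9.45 to 9.93 in the brain-dead arrays and fell by 0.83 ± 0.15 (adjusted p = 0.00522) with no overlap. Egr1 no longer passed without NBD 3 (adjusted p = 0.0553) or NBD 4 (adjusted p = 0.087). In that list 1 rose and 2 fell without NBD 3 and 2 rose and 2 fell without NBD 4 or BD 3, and 1 rose and 2 fell with the 3'/5' ratio in the fit. Egr1 did not pass with the 3'/5' ratio in the fit (adjusted p = 0.0959).

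A minority of the cytokine, NF-kB and interferon lists passed, at 13.95%, 25% and 20% of measured members, against 6.72% of all genes tested. Of the cytokines and chemokines 4 rose and 2 fell of 43 measured (9.3% and 4.65%), with a median log2 change of 0.03. The share of falls was close to the 4.12% of all genes tested. Of the NF-kB list 3 rose and 2 fell of 20 measured (15% and 10%), with a median log2 change of 0.04, and of the interferon list 2 rose and 3 fell of 25 measured (8% and 12%), with a median log2 change of 0.04. For the cytokine list, 10 rose and 1 fell in BD taken singly, and 2 rose and 5 fell in BD_VNS. For the NF-kB list, 4 rose and 1 fell in BD taken singly, and 2 rose and 3 fell in BD_VNS. For the interferon list, 3 rose and 1 fell in BD taken singly, and 3 rose and 4 fell in BD_VNS. Ccl2, which attracts monocytes, was at 7.58, 7.89 and 7.68 in NBD, 9.59, 9.03, 9.30 and 9.61 in BD, and 8.20, 8.54, 8.43 and 7.94 in BD_VNS. Every BD array was above every BD_VNS array, and both groups were above NBD. It rose by 1.11 ± 0.14 (adjusted p = 6.77e-04), at 1.67 in BD and 0.56 in BD_VNS, and the difference between the brain-dead groups was -1.10 ± 0.15 (adjusted p = 0.00397). Il1b, the interleukin matured by Casp1, was at 8.22, 8.20 and 8.05 in NBD, 8.98, 8.84, 8.85 and 8.81 in BD, and 8.26, 8.19, 8.26 and 7.99 in BD_VNS. Only BD stood above NBD, so the pooled rise of 0.36 ± 0.06 (adjusted p = 0.00476) combined 0.71 in BD and 0.01 in BD_VNS, and the difference was -0.70 ± 0.07 (adjusted p = 9.33e-04). Cxcl16, a transmembrane chemokine, had a pooled rise of 0.37 ± 0.06 (adjusted p = 0.00408), from 0.58 in BD and 0.15 in BD_VNS, and differed by -0.44 ± 0.06 (adjusted p = 0.00597). Cx3cl1 was the other rise. Cxcl11, a chemokine induced by interferon, was at 8.98, 9.06 and 8.85 in the NBD arrays and ran from 8.24 through a median of 8.48 to 8.60 in the brain-dead arrays, below the controls throughout, and fell by 0.50 ± 0.07 (adjusted p = 0.00116). Ccl5 was the other fall. Il1b and Cxcl16 passed in BD and not in BD_VNS (adjusted p from 0.232 to 0.944 there). Ccl2, Il1b and Cxcl16 each passed the pooled contrast in 20 of 21 alternative fits, with an adjusted p of 0.083, 0.411 and 0.167 in the other. The gap between BD and BD_VNS counts as spread when the brain-dead arrays are fitted as 1 group. In that fit 1 gene of the cytokine list rose, against 4 in the main fit.

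Regulators of NF-kB and interferon signals followed. Bcl3, a nuclear partner of NF-kB, was at 8.04, 8.04 and 7.94 in the NBD arrays and ran from 8.35 through a median of 8.47 to 8.69 in the brain-dead arrays, all above NBD, and rose by 0.49 ± 0.07 (adjusted p = 0.00202). Nfkb1 rose by 0.23 ± 0.04 (adjusted p = 0.00283) and Cd40 was the other rise. Tnip1, which restrains NF-kB, was at 11.69, 11.76 and 11.62 in the NBD arrays and ran from 11.12 through a median of 11.28 to 11.39 in the brain-dead arrays and fell by 0.42 ± 0.05 (adjusted p = 4.76e-04) without overlap, and Nfkbia, the inhibitor of NF-kB, fell by 0.49 ± 0.09 (adjusted p = 0.00806). Irf1, a transcription factor induced by interferon gamma, was at 10.35, 10.50 and 10.34 in the NBD arrays and ran from 10.62 through a median of 10.91 to 11.05 in the brain-dead arrays, above the controls throughout, and rose by 0.48 ± 0.08 (adjusted p = 0.00341). Tap1, the peptide transporter of antigen presentation, rose by 0.23 ± 0.04 (adjusted p = 0.00522). The interferon list's falls were Isg15, Rsad2 and Stat2. Nfkbia no longer passed without NBD 3 (adjusted p = 0.0612) and Isg15 without NBD 1 (adjusted p = 0.067), NBD 3 (adjusted p = 0.171) or both BD 4 and BD 6 (adjusted p = 0.0675). The call for Rsad2 was lost without NBD 3, NBD 4, BD 3 or BD_VNS 3, with adjusted p from 0.05 to 0.17. In the interferon list 2 rose and 1 fell without both BD 4 and BD 6 or NBD 1 and 2 rose and 0 fell without NBD 3. In the cytokine list 5 rose and 1 fell without both BD 4 and BD 6 or BD 4, 4 rose and 1 fell without NBD 1, NBD 3, NBD 4, BD 6 or BD_VNS 3 and 5 rose and 4 fell without BD_VNS 2, and 5 rose and 1 fell with the 3'/5' ratio in the fit. With the brain-dead arrays fitted as 1 group, 1 rose and 1 fell in the cytokine list. In the NF-kB list 2 rose and 1 fell without NBD 3 and 5 rose and 2 fell without BD_VNS 2, and 2 rose and 1 fell with the 3'/5' ratio in the fit. Isg15 and Rsad2 passed in BD_VNS and not in BD (adjusted p from 0.0584 to 0.0766 there). Isg15 did not pass with the 3'/5' ratio in the fit (adjusted p = 0.153), nor with the pancreas list mean in it (adjusted p = 0.0553).

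Of the interleukin 6 and Stat3 list, 3 rose and 5 fell of 27 measured (11.1% and 18.5%), with a median log2 change of -0.06. For the Stat3 list, 5 rose and 3 fell in BD taken singly, and 1 rose and 5 fell in BD_VNS. Cish, a suppressor of cytokine signalling, was at 8.08, 8.21 and 7.98 in the NBD arrays and ran from 7.20 through a median of 7.50 to 7.62 in the brain-dead arrays, below NBD throughout, and fell by 0.62 ± 0.07 (adjusted p = 1.83e-04). Serpina3n, an acute phase serpin, fell by 0.27 ± 0.05 (adjusted p = 0.00814), and Socs1, Socs2 and Lcn2 were the other falls. Stat3 itself rose by 0.34 ± 0.07 (adjusted p = 0.0137), with Socs3 and Reg3b the other rises, the last from a family of near-identical copies. Socs3 and Reg3b did not pass without BD 4 and BD 6, while Stat3 did (adjusted p = 0.0252). Stat3 no longer passed without NBD 3 (adjusted p = 0.0682) or NBD 4 (adjusted p = 0.0797) and Socs1 without NBD 1 (adjusted p = 0.131), NBD 3 (adjusted p = 0.0828) or both BD 4 and BD 6 (adjusted p = 0.0597). In that list 1 rose and 4 fell without BD 4 and BD 6, and with single arrays left out 0 to 5 rose, fewest without NBD 3 or NBD 4, and 2 to 6 fell, fewest without NBD 1 or NBD 3, and 0 rose and 2 fell with the 3'/5' ratio in the fit. Serpina3n and Socs1 were among the lowest 25% of genes by level. With those genes left out, 3 rose and 2 fell in the list, and its median log2 change was 0.06. Socs1 passed in BD_VNS and not in BD (adjusted p = 0.0635 there). Stat3 and Socs1 did not pass with the 3'/5' ratio in the fit (adjusted p from 0.0853 to 0.102), nor did Socs1 with the pancreas list mean in it (adjusted p = 0.0519).

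**Figure D4:**
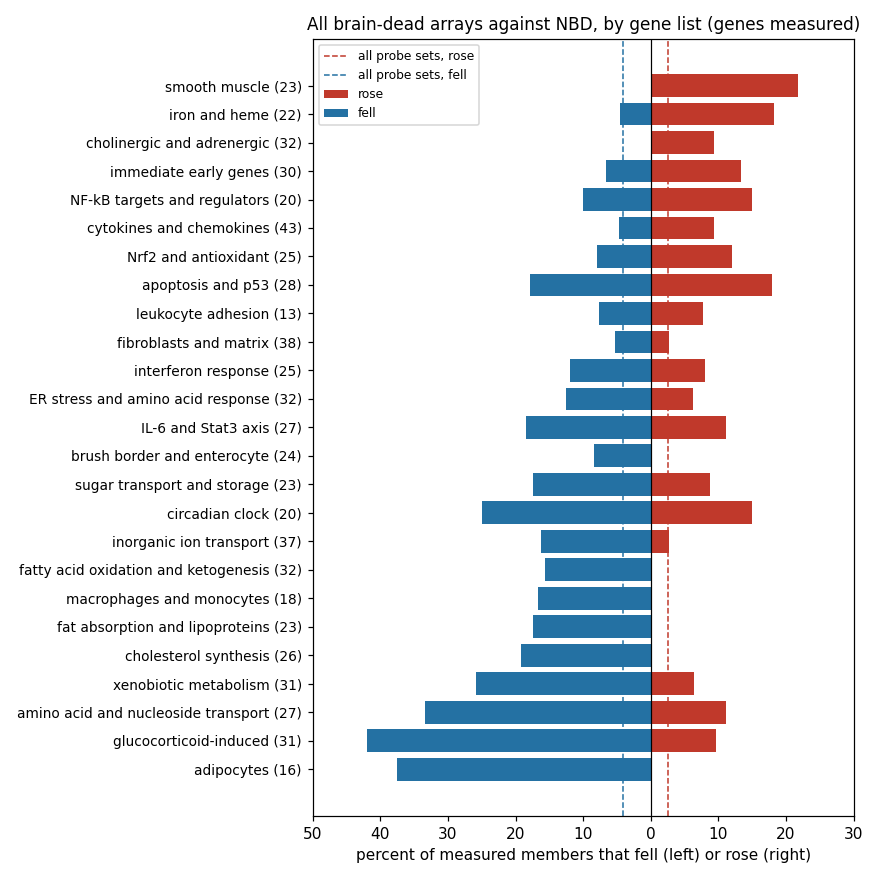
Bars give the percent of measured members of each gene list that rose (right) or fell (left) in all brain-dead arrays against NBD at an adjusted p under 0.05; the number measured is in brackets and dashed lines are the shares of all genes tested (2.6% rose, 4.12% fell). In the glucocorticoid list 13 of 31 members fell, and no member fell in the smooth muscle list.

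Markers of other cell types were read beside these results, and their part in the other changes was not tested. Of the smooth muscle list, 5 rose and 0 fell of 23 measured (21.7% and 0%), with a median log2 change of 0.15; its mean log2 level was 9.23 to 9.40 in NBD and 9.35 to 9.68 in the brain-dead arrays. Hspb6, a small heat shock protein of muscle, was at 8.93, 8.83 and 9.22 in NBD, 9.34, 9.95, 9.42 and 9.63 in BD, and 9.55, 9.66, 9.65 and 9.78 in BD_VNS and rose by 0.63 ± 0.12 (adjusted p = 0.0073) without overlap. Cnn1, calponin, was at 9.82, 9.58 and 10.03 in the NBD arrays and ran from 10.16 through a median of 10.36 to 10.58 in the brain-dead arrays, also without overlap, and rose by 0.55 ± 0.11 (adjusted p = 0.00775). Actg2, enteric smooth muscle actin, rose by 0.53 ± 0.12 (adjusted p = 0.0241), with Actn1 and Des the other rises. Hspb6 no longer passed without NBD 3 (adjusted p = 0.0571), Cnn1 without NBD 3 (adjusted p = 0.0577), Actg2 without NBD 1 (adjusted p = 0.114) or NBD 3 (adjusted p = 0.153) and Actn1 without NBD 1 (adjusted p = 0.0537). In that list 2 rose and 0 fell without NBD 1 and 1 rose and 0 fell without NBD 3, and 1 rose and 0 fell with the 3'/5' ratio in the fit. Actn1 passed in BD and not in BD_VNS (adjusted p = 0.0514 there). Actg2 passed in BD_VNS and not in BD (adjusted p = 0.0509 there). Hspb6, Cnn1 and Actg2 did not pass with the 3'/5' ratio in the fit (adjusted p from 0.0587 to 0.146).

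Of the adipocyte list, 0 rose and 6 fell of 16 measured (0% and 37.5%), with a median log2 change of -0.23, and the list mean was 8.32 to 8.33 in NBD and 7.91 to 8.24 in the brain-dead arrays. Cidec, a lipid droplet protein, was at 8.91, 8.75 and 8.96 in the NBD arrays and ran from 7.78 through a median of 8.04 to 8.14 in the brain-dead arrays, with no overlap, and fell by 0.87 ± 0.07 (adjusted p = 2.83e-05). Pnpla2, adipose triglyceride lipase, fell by 0.35 ± 0.06 (adjusted p = 0.00428), Rbp4, the retinol carrier, by 0.31 ± 0.05 (adjusted p = 0.00206), and Aqp7, Fabp4 and Cfd were the other falls. Enterocytes also store lipid droplets, and the cells behind these levels were not tested. In the brush border list, 0 rose and 2 fell of 24 measured (0% and 8.33%), with a median log2 change of -0.10. The 8.33% that passed was near the 6.72% of all genes tested. For the brush border list, 0 rose and 6 fell in BD taken singly, and 0 rose and 2 fell in BD_VNS. Cdx1, an intestinal transcription factor, was at 9.01, 9.0 and 9.02 in the NBD arrays and ran from 8.44 through a median of 8.56 to 8.76 in the brain-dead arrays, below NBD throughout, and fell by 0.46 ± 0.06 (adjusted p = 6.23e-04). Cubn, the receptor for intrinsic factor and cobalamin, changed by -1.20 with overlapping arrays. The call for Cubn was lost without NBD 1, NBD 3, NBD 4, BD 3, BD 6, BD_VNS 1, BD_VNS 3, BD_VNS 4 or both BD 4 and BD 6, with adjusted p from 0.0515 to 0.251. In the brush border list 0 rose and 1 fell without NBD 1, NBD 3, NBD 4, BD 3, BD 6, BD_VNS 1, BD_VNS 3 or BD_VNS 4, 0 rose and 5 fell without BD 1 and 0 rose and 4 fell without BD_VNS 2, and 0 rose and 1 fell with the 3'/5' ratio in the fit. Cubn passed in BD and not in BD_VNS (adjusted p = 0.142 there). Cubn did not pass with the 3'/5' ratio in the fit (adjusted p = 0.224), nor with the pancreas list mean in it (adjusted p = 0.0728).

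Many macrophage and matrix genes were lower in BD_VNS than in BD, so that their pooled change averaged unlike values. Of the macrophage list, 0 rose and 3 fell of 18 measured (0% and 16.7%), with a median log2 change of -0.21. For the macrophage list, 0 rose and 0 fell in BD taken singly, and 0 rose and 10 fell in BD_VNS. In the direct comparison 12 of the 18 were lower in BD_VNS than in BD, against 3.66% of all genes tested. The list mean was 8.58 to 8.74 in NBD, 8.61 to 8.76 in BD and 7.91 to 8.39 in BD_VNS. C1qb, a chain of complement C1q made by macrophages, was at 9.87, 9.93 and 10.09 in NBD, 9.82, 9.77, 9.80 and 9.67 in BD, and 8.62, 9.40, 8.69 and 8.18 in BD_VNS. The BD arrays also lay below NBD, by a small margin, and the BD_VNS arrays were lower still, and the difference from BD was -1.04 ± 0.19 (adjusted p = 0.0114). Fcgr2b, an inhibitory receptor for immunoglobulin G, was at 8.04, 8.14 and 8.54 in NBD, 8.40, 7.93, 8.08 and 8.01 in BD, and 7.17, 7.58, 7.35 and 6.99 in BD_VNS and differed by -0.83 ± 0.14 (adjusted p = 0.00957). C1qc, with a pooled adjusted p of 0.0554, differed by -1.11 ± 0.20 (adjusted p = 0.0118), and Lgmn, a lysosomal protease, by -0.34 ± 0.06 (adjusted p = 0.0112). The call for C1qb was lost without NBD 1, NBD 3, NBD 4, BD 3, BD 6, BD_VNS 1, BD_VNS 3 or both BD 4 and BD 6, with adjusted p from 0.0541 to 0.136. The call for Fcgr2b was lost without NBD 3, NBD 4, BD 3, BD 6, BD_VNS 1 or both BD 4 and BD 6, with adjusted p from 0.0552 to 0.163. Lgmn no longer passed without NBD 1 (adjusted p = 0.0753). In that list 0 rose and 1 fell without both BD 4 and BD 6, NBD 1, NBD 3, NBD 4, BD 3, BD 6 or BD_VNS 1 and 0 rose and 9 fell without BD_VNS 2, and 0 rose and 0 fell with the 3'/5' ratio in the fit. C1qb, Fcgr2b and Lgmn passed in BD_VNS and not in BD (adjusted p from 0.464 to 0.704 there). C1qb, Fcgr2b and Lgmn did not pass with the 3'/5' ratio in the fit (adjusted p from 0.0879 to 0.173), nor did C1qb or Fcgr2b with the pancreas list mean in it (adjusted p from 0.0644 to 0.0668).

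Of the fibroblast and matrix list, 1 rose and 2 fell of 38 measured (2.63% and 5.26%), with a median log2 change of -0.04. Those shares were close to the 2.6% and 4.12% of all genes tested. For the fibroblast list, 5 rose and 0 fell in BD taken singly, and 0 rose and 10 fell in BD_VNS. In the direct comparison 25 of the 38 were lower in BD_VNS than in BD, against 3.66% of all genes tested. The list mean was 8.70 to 8.81 in NBD, 8.88 to 9.02 in BD and 8.29 to 8.69 in BD_VNS. Mgp, which inhibits calcification of matrix, was at 10.99, 11.01 and 11.23 in NBD, 10.97, 10.94, 10.95 and 10.96 in BD, and 9.97, 10.20, 10.14 and 9.62 in BD_VNS. It fell by 0.61 ± 0.10 (adjusted p = 0.00371) in the pooled contrast, at -0.12 in BD and -1.09 in BD_VNS, and the difference was -0.97 ± 0.11 (adjusted p = 0.00188). Mgp passed the pooled contrast in 20 of 21 alternative fits, with an adjusted p of 0.305 in the other. Dcn, the proteoglycan decorin, had a pooled adjusted p of 0.0513 and a difference of -1.08 ± 0.18 (adjusted p = 0.00853). Outside the lists, Mmp10, a matrix metalloproteinase, differed by -0.77 ± 0.15 (adjusted p = 0.017) and Ms4a6bl1 by -0.77 ± 0.14 (adjusted p = 0.0111). Timp3 was the other fall of the list and S100a4 its rise. The call for Timp3 was lost without NBD 1, NBD 3, NBD 4, BD 1, BD 4, BD 6, BD_VNS 1, BD_VNS 3, BD_VNS 4 or both BD 4 and BD 6, with adjusted p from 0.051 to 0.199. Mmp10 no longer passed without NBD 1 (adjusted p = 0.118), NBD 3 (adjusted p = 0.0722), NBD 4 (adjusted p = 0.0619) or both BD 4 and BD 6 (adjusted p = 0.0507) and S100a4 without NBD 1 (adjusted p = 0.0614) or NBD 3 (adjusted p = 0.0527). In that list 1 rose and 1 fell without both BD 4 and BD 6, NBD 4, BD 1, BD 4, BD 6, BD_VNS 1 or BD_VNS 3, 0 rose and 1 fell without NBD 1 or NBD 3 and 1 rose and 6 fell without BD_VNS 2, and 1 rose and 1 fell with the 3'/5' ratio in the fit. S100a4 passed in BD and not in BD_VNS (adjusted p = 0.103 there). Mgp, Mmp10, Ms4a6bl1 and Timp3 passed in BD_VNS and not in BD (adjusted p from 0.133 to 0.627 there). Mmp10 and Timp3 did not pass with the 3'/5' ratio in the fit (adjusted p from 0.105 to 0.173), nor did Timp3 with the pancreas list mean in it (adjusted p = 0.0956).

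**Figure D5:**
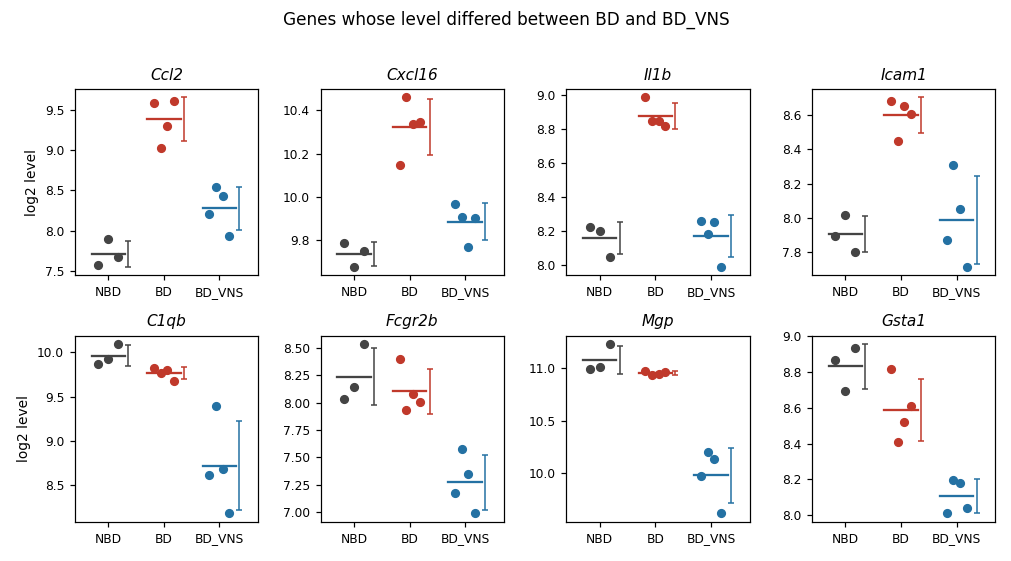
Each point is the log2 level on 1 array for 8 genes that passed the pooled contrast and also differed between BD_VNS and BD; lines are group means and bars 1 SD (NBD n = 3, BD n = 4, BD_VNS n = 4). Axes differ between panels and do not start at 0; in Ccl2, Cxcl16, Il1b and Icam1 the BD arrays are the highest, and in C1qb, Fcgr2b, Mgp and Gsta1 the BD_VNS arrays are the lowest.

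Among the 90 genes of the pooled contrast whose level also differed between BD_VNS and BD, 66 were falls, of which 45 were farther from NBD in BD_VNS and 21 in BD. Of the 24 rises, 13 were farther from NBD in BD_VNS and 11 in BD. Gsta1, a glutathione transferase with near-identical copies, was at 8.87, 8.69 and 8.94 in NBD, 8.82, 8.41, 8.52 and 8.61 in BD, and 8.01, 8.20, 8.18 and 8.04 in BD_VNS, lowest in BD_VNS, with a difference of -0.48 ± 0.08 (adjusted p = 0.0108). Icam1, an adhesion molecule for leukocytes, was at 7.89, 8.01 and 7.80 in NBD, 8.69, 8.45, 8.65 and 8.61 in BD, and 7.87, 8.31, 8.05 and 7.71 in BD_VNS, highest in BD, with a difference of -0.61 ± 0.11 (adjusted p = 0.0111). The call for Icam1 was lost without NBD 1, NBD 3, NBD 4, BD 1, BD 4, BD 6, BD_VNS 1, BD_VNS 3 or both BD 4 and BD 6, with adjusted p from 0.051 to 0.175. Without BD 4 and BD 6, the difference between the brain-dead groups still passed for 7 of the 17 named genes that had it, among them Ccl2 (adjusted p = 0.035), Il1b (0.013), Cxcl16 (0.0464), Fcgr2b (0.0474) and Mgp (0.0261), and it did not for C1qb (0.061), C1qc (0.0531), Dcn (0.0521), Gsta1 (0.0535), Lgmn (0.0632), Icam1 (0.0754), Mmp10 (0.0968), Ms4a6bl1 (0.058), Slc2a2 (0.0978) and Cyp4b1 (0.218). In 15 of the 17 it passed with any single array left out, the exceptions being Cyp4b1 and Slc7a1. The leukocyte adhesion list had 1 rise (Icam1) and 1 fall (Jam3) of 13 measured (7.69% and 7.69%), with a median log2 change of 0.03. The 90 became 13 without BD 4 and BD 6, 30 without BD 6 and 233 without BD_VNS 2, and lay between 33 and 76 without any other single array. Among the 30 largest changes, Sgk1, Casp1, Cdc37l1, Mpv17, Ankh and Chac2-ps2 had the smallest differences between the brain-dead groups, from -0.04 to 0.04. Icam1 passed in BD and not in BD_VNS (adjusted p = 0.746 there). Jam3 passed in BD_VNS and not in BD (adjusted p = 0.213 there), and it no longer passed the pooled contrast without NBD 4 (adjusted p = 0.105). Icam1 did not pass with the pancreas list mean in the fit (adjusted p = 0.0801).

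Of the cholinergic and adrenergic list, 3 rose and 0 fell of 32 measured (9.38% and 0%), with a median log2 change of 0.01. Bche, butyrylcholinesterase, was at 8.42, 8.46 and 8.46 in the NBD arrays and ran from 8.63 through a median of 8.73 to 8.84 in the brain-dead arrays, above NBD throughout, and rose by 0.28 ± 0.05 (adjusted p = 0.00469), and Maoa and Maob, which break down monoamines, were the other rises. The call for Maob was lost without NBD 3, NBD 4, BD 1, BD 4, BD 6, BD_VNS 1, BD_VNS 4 or both BD 4 and BD 6, with adjusted p from 0.0512 to 0.185. Maoa no longer passed without NBD 1 (adjusted p = 0.104) or NBD 3 (adjusted p = 0.103). In that list 1 rose and 0 fell without NBD 3, and 1 rose and 0 fell with the 3'/5' ratio in the fit. In 9 lists with 161 measured genes no member passed the pooled contrast in limma, among them oxidative phosphorylation (31 genes, median -0.0017), the proteasome (26, -0.03), T, NK and B lymphocytes (24, -0.08), MHC class II (9, -0.15), goblet and Paneth cells (13, -0.07) and enteric neurons and glia (25, 0.01). Of these 161 genes, 17 had an unadjusted p under 0.05 in limma. Over all 11427 genes tested 2289 had one, which is a larger share. The exocrine pancreas list, which is among the 9, had a median of 1.74 that became 0.12 without BD 4 and BD 6, and 1 member rose in BD. In BD_VNS taken singly, 2 goblet and Paneth genes, 1 lymphocyte gene and 1 MHC class II gene fell, and 1 enteric neuron and glia gene rose. Over all genes tested 4.8% fell and 3.64% rose there. In the direct comparison 3, 2 and 1 genes of the first 3 lists and 1 pancreas gene were lower in BD_VNS than in BD, and 1 proteasome gene was higher. Maoa and Maob passed in BD_VNS and not in BD (adjusted p from 0.0595 to 0.152 there). Maoa and Maob did not pass with the 3'/5' ratio in the fit (adjusted p from 0.121 to 0.14), nor did Maob with the pancreas list mean in it (adjusted p = 0.0771).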

How the data were processed

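Gene expression was measured on an Affymetrix rat array in 11 samples. The authors deposited 1 normalized log2 value per probe set and array, with 1 probe set per Entrez gene; that the scale is log2 was read from the values, and no source used here gives the normalization or its software. Medians per array ran from 7.89 to 7.93. The table holds 11484 probe sets, of which 57 are controls and were not tested. Of the remaining 11427, 11255 have a symbol, from the platform annotation or, by Entrez number, RefSeq, and 172 have none here. Some probe sets may measure several near-identical gene copies.

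A limma model (version 3.58.1, R 4.3.3) with a mean per group was fitted to all arrays by lmFit and eBayes, and checked on simulated data. The contrasts were the mean of BD and BD_VNS minus NBD, each of the 2 against NBD, and BD_VNS minus BD. Benjamini-Hochberg adjustment covered the 11427 probe sets, and genes with an adjusted p under 0.05 passed. Changes are log2 with the moderated SE, from 8 brain-dead and 3 NBD arrays unless a group is named. "Rose" and "fell" are used of genes that passed.

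The groups compared, the gene lists and the members described were chosen with earlier results of these data known. Of 1305 genes in 47 lists, 1001 were measured, and 25 lists are described. Named genes are the 15 largest rises and 15 largest falls with no overlap between brain-dead and NBD arrays, leaving out predicted genes, up to 4 members of each described list with the smallest p, and the 6 genes whose brain-dead groups differed most or, among the 30 largest, least. Some genes that meet this rule are not reported here. Promoter sequences come from RefSeq, build GRCr8. Alternatives were a trend and robust variance, brain-dead arrays as 1 group, median centring, quantile normalization, a filter on the lowest 25% by level, array weights, replicate number as a block, the 3'/5' ratio or the pancreas list mean in the model, an adjusted p under 0.10, and leaving out each array or both BD 4 and BD 6. Deviations of arrays that share a replicate number correlated at -0.245 to 0.071, so the numbers were not taken to pair the samples.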

Additional observations from a re-analysis of the deposited data

Results flagged for a closer look

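In 9 of 232 sets of 4 arrays examined (each named gene in BD and in BD_VNS), 1 array stood far from the other 3, by Dixon's gap criterion at the 95% level. Chance alone gives about 1 in 20 such sets. The log2 levels of these arrays were 10.10 for Egr1 in BD_VNS 4, 11.99 for Casp1 in BD_VNS 2, 10.66 for Slc28a2 in BD_VNS 2, 9.86 for Kcne3 in BD 3, 8.54 for Lss in BD 1, 10.73 for Tfrc in BD_VNS 1, 8.72 for Tap1 in BD 6, 9.83 for Stat3 in BD_VNS 2 and 12.50 for Actg2 in BD 3. In Casp1 and Tap1 the whole group spans a small range.

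The level differed between BD_VNS and BD, by the test of that difference in limma, in 17 of the named genes. Differences of BD_VNS minus BD on the log2 scale were positive, at 0.51 for Cyp4b1, 0.21 for Slc2a2 and 0.22 for Slc7a1. They were negative, at -1.10 for Ccl2, -0.48 for Gsta1, -0.44 for Cxcl16, -0.70 for Il1b, -0.61 for Icam1, -0.41 for Icam2, -0.34 for Lgmn, -0.83 for Fcgr2b, -1.04 for C1qb, -1.11 for C1qc, -0.97 for Mgp, -1.08 for Dcn, -0.77 for Mmp10 and -0.77 for Ms4a6bl1.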

How the results depend on the processing

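Of the 21 alternatives, the filter on level left out 4 of the 116 named genes. No named gene changed direction in an alternative that tested it, and 63 of the 109 that passed did so in each of these. The counts that moved were the 768 genes of the pooled contrast, the 370 that passed against NBD in both brain-dead groups, and the 90 of the pooled contrast that also differed between BD_VNS and BD. With array weights they were 2192, 875 and 454. Adding the 3'/5' signal ratio to the fit, the first 2 were 504 and 207. At an adjusted p under 0.10 the first was 1161 and the last 227. With the pancreas list mean as a covariate the last was 39, and without BD 4 and BD 6 the last 2 were 220 and 13. With each array left out in turn, they ran from 400 to 1197, from 208 to 494 and from 30 to 233. With replicate number as a block, a pairing the data do not bear out, the counts were 645, 242 and 71. Rises were 38.7% of the calls, 32.4% with median centring and 36.7% with quantile normalization. The fits that left out 1 of the 3 NBD arrays gave the lowest counts of the pooled contrast. The causes of these shifts were not tested.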
